A study of Mus musculus with 30 samples.

Results

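Wfs1 encodes wolframin, a membrane protein of the endoplasmic reticulum (ER). Loss of wolframin in people causes Wolfram syndrome, in which diabetes and optic atrophy occur together. Wolframin is known for restraining ER stress signalling and for its part in ER calcium handling. In rodent forebrain the gene is known for expression in principal neurons, including upper cortical layers, the CA1 field of the hippocampus and the ventral striatum with the nucleus accumbens. The spiny projection neurons of the striatum are inhibitory and form a direct and an indirect pathway.

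The gene was followed here in the striatum and in the subventricular zone (SVZ), the germinal layer beside the lateral ventricle. It is 1 gene of 50508 in the striatum table and 1 of 53278 in the SVZ table. It was chosen by its measured values, since its levels in the 4 groups of genotype and treatment were known when it was picked. The differences between those groups are therefore given as a description, with no test.

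Both tissues were taken from 15 C57Bl/6 mice, each giving 1 striatum and 1 SVZ library. The NestinTK transgene places thymidine kinase under the rat Nestin second intron enhancer, so that the prodrug ganciclovir (GCV) kills dividing cells that use this enhancer. The 5 NestinTK+GCV+ mice carried the transgene and received GCV, and are called ablated. The 3 control groups were 3 NestinTK-GCV+ mice (no transgene, GCV), 3 NestinTK-PBS+ mice (no transgene, saline) and 4 NestinTK+PBS+ mice (transgene, saline). GCV or PBS was delivered by a subcutaneous osmotic minipump, and NestinTK- mice were wild-type littermates. The mice were adults of both sexes, and the sex and exact age of each mouse were not used here. Mice are numbered within their group, the same in both tissues, and the number is only a name. The sample labels carry other mouse numbers, which fall in a lower and a higher series. All 5 ablated mice were of the higher series, as were 5 of the 10 controls. The NestinTK-PBS+ mice were all of the lower series, so group and series were not balanced. P-values measure the spread between these mice. GCV libraries carried numbers from 1 to 10 and PBS libraries numbers from 11 to 20 in each tissue, so treatment and library numbering cannot be told apart.

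In GRCm38 the gene (ENSMUSG00000039474.13) spans bases 36966104 to 36989205 of chromosome 5 and is read from the minus strand. GENCODE gives it 3 transcripts, of which 2 are protein coding. The longer one, Wfs1-201, has 8 exons, and its 3′ UTR (36966104 to 36966875) lies in the last exon. The striatum libraries were 3′ tag libraries and read this end of the transcript. No exon of another annotated gene overlaps an exon of Wfs1. The nearest genes are Jakmip1, 39130 bases upstream, and Ppp2r2c, 11026 bases downstream.

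ER stress factors are known to act through the ER stress element, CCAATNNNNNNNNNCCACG, in the promoters of chaperone genes. RefSeq promoter windows of 300 bases (GRCm38.p6) were searched for it on both strands. It was in 37 of 27025 promoters (0.137%) and in 7 of the 13 matched genes of the ER chaperone list. It was not in the Wfs1 window, 36988933 to 36989232 on chromosome 5, which has a GC content of 70.0%. That window holds 1 CCAAT box, as 41.1% of all promoters do, and no CCACG. Most of it, 273 bases, lies within the first exon of Wfs1-201, so little sequence upstream of that exon was searched. Only exact matches were counted, and the window cannot show whether the element lies farther upstream. The stretches are shown because the chaperone genes are set against Wfs1 below. Each reads 5′ to 3′ on the strand that carries the motif, with the matched bases in capitals, and the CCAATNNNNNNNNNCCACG element includes the CCAAT box.

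Wfs1, chr5:36989059-36989087, plus strand: ccggcaagcctgCCAATcactatgtgctg
Hspa5, chr2:34772020-34772048, plus strand: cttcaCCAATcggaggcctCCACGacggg
Dnajc3, chr14:118937822-118937850, plus strand: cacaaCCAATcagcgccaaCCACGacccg
Canx, chr11:50325795-50325823, minus strand: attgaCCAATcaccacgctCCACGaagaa
Pdia6, chr12:17266486-17266514, plus strand: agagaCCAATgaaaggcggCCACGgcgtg

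Striatum libraries held 2626962 to 3371033 counts in ablated and 2780471 to 4693441 in control mice. SVZ libraries held 8360810 to 9595103 counts in ablated and 8947137 to 21056005 in control mice. The ablated libraries were thus mostly the smaller ones in both tissues, though the ranges overlapped. The part of library size in the values of genes with few counts was not tested. Several libraries stood apart by genes other than Wfs1. In the striatum of NestinTK+PBS+ mouse 4 the shared spiny neuron list averaged 7.92 log2 CPM, against 8.79 to 9.16 in the other controls. In the SVZ of ablated mouse 2 the cortical excitatory neuron list averaged 5.61 log2 CPM, against -0.32 to 0.51 in the other ablated mice. NestinTK-GCV+ mice 1 and 3 were also rich in cortical genes in the SVZ, at 3.52 and 5.46. In the striatum the summed CPM of the cortical list ran from 103 to 232 in ablated and from 57.4 to 693 in control mice, and its r with Wfs1 was 0.01, or 0.55 without the 2 libraries farthest from the list's median. Of the 8 genes of this list tested in the striatum, 7 had lower values in ablated mice (list median log2 fold change -0.56). The 1 with a higher value was Lamp5, a membrane protein of upper layer neurons. It rose at an unadjusted p under 0.05 (log2 fold change 0.51 ± 0.15 SE, edgeR adjusted p = 0.185) and had r = 0.80 with Wfs1. In 3 control SVZ libraries Ttr, a choroid plexus gene, took 4.49% to 9.88% of counts. The labels call the SVZ samples neural precursor cells, but their libraries also held spiny neuron genes, with a list mean of 8.03 to 9.59 log2 CPM. As a check of the ablation, Dcx, a neuroblast gene, read 15.5 to 26.1 CPM in ablated and 23.4 to 108 CPM in control SVZ. In edgeR 7 of 9 neuroblast genes fell at an unadjusted p under 0.05, as 6.09% of all genes tested in the SVZ did. None fell at an adjusted one, which Dcx passed in DESeq2.

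In the striatum Wfs1 stood higher in the ablated mice, at a log2 fold change of 1.00 against all 10 controls. Levels are CPM (counts as a share of the library total), with library sizes scaled by the trimmed mean of M values (TMM). Ablated mice 1 to 5 read 146, 169, 152, 138 and 118 CPM. NestinTK-GCV+ mice 1 to 3 read 50.0, 96.3 and 50.5 CPM. NestinTK-PBS+ mice 1 to 3 read 74.1, 65.0 and 77.7 CPM. NestinTK+PBS+ mice 1 to 4 read 99.4, 73.4, 74.7 and 61.1 CPM. Every ablated mouse lay above every control mouse, and the 3 control groups overlapped each other. Of 15419 genes tested in the striatum, 43 (0.279%) had every ablated library above every control library.

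The ablated group averaged 145 CPM ± 18.7 (SD, n = 5). NestinTK+PBS+ mice averaged 77.2 CPM ± 16.1 (SD, n = 4), NestinTK-PBS+ mice 72.3 CPM ± 6.55 (SD, n = 3) and NestinTK-GCV+ mice 65.6 CPM ± 26.6 (SD, n = 3). The order of these 3 control groups rests on differences smaller than their spread. The fitted log2 fold change of ablated mice was 1.14 ± 0.20 (SE) against NestinTK-GCV+, 1.00 ± 0.20 against NestinTK-PBS+ and 0.90 ± 0.18 against NestinTK+PBS+. The part that appeared only with transgene and GCV together, the interaction, was 1.04 ± 0.28 on the log2 scale. GCV without the transgene differed from saline by -0.14 ± 0.22 log2, and the transgene without GCV by 0.10 ± 0.20. In bulk tissue more cells that express the gene and more RNA per cell cannot be told apart.

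**Figure D1:**
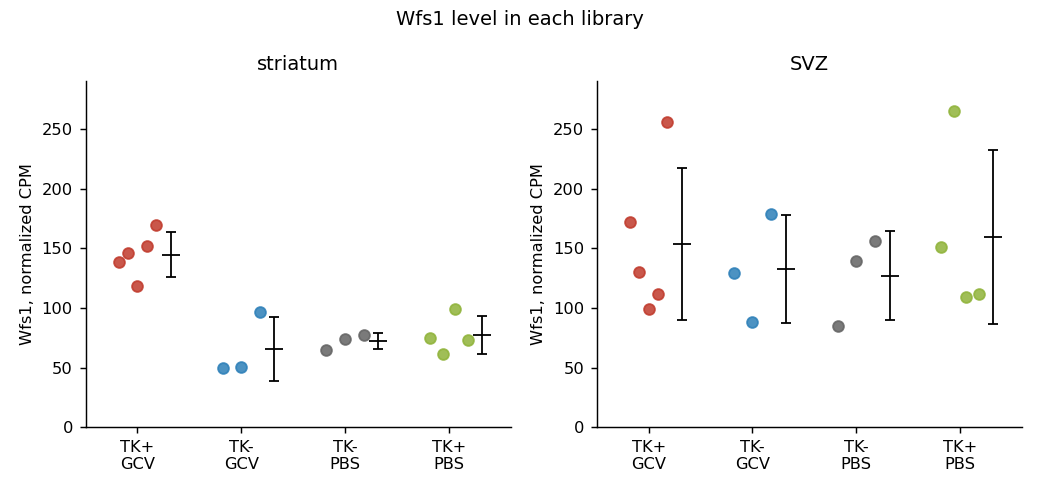
Normalized CPM of Wfs1 (vertical axis, from 0) in each library of the striatum and the SVZ, by group of transgene (TK+ or TK-) and treatment (GCV or PBS). Points are single mice and the black mark is the group mean ± SD; ablated striatum points (118 to 169 CPM) lie above all control points (50.0 to 99.4 CPM), while the SVZ groups overlap.

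In the SVZ the groups overlapped. Ablated mice 1 to 5 read 130, 255, 111, 172 and 98.9 CPM. NestinTK-GCV+ mice 1 to 3 read 130, 179 and 88.6 CPM. NestinTK-PBS+ mice 1 to 3 read 139.5, 85.1 and 156 CPM. NestinTK+PBS+ mice 1 to 4 read 109, 112, 151 and 265 CPM. The 2 highest libraries were 1 ablated and 1 control mouse. Group means were 154 CPM ± 63.3 (ablated, n = 5), 132 CPM ± 45.3 (NestinTK-GCV+, n = 3), 127 CPM ± 37.2 (NestinTK-PBS+, n = 3) and 159 CPM ± 72.9 (NestinTK+PBS+, n = 4), each with its SD. No neighbours in that order differed beyond their spread. The log2 fold change was 0.21 ± 0.36 (SE) against NestinTK-GCV+ and -0.05 ± 0.32 against NestinTK+PBS+. Without the 3 libraries rich in cortical genes, the ablated minus control difference of mean log2 CPM went from 0.11 to -0.18. The difference between the tissues was not tested, since the libraries were of different kinds. Over the 15 mice, striatal and SVZ Wfs1 gave Pearson r = 0.23 and Spearman rho = 0.21, and over the 10 controls r = 0.18 (permutation p = 0.625, adjusted p = 0.825). Without the 2 mice farthest from the SVZ median r was 0.26.

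No gene that marks spiny neurons of both pathways rose with Wfs1 against all 10 controls. All 20 genes of the shared spiny neuron list were tested in the striatum and their median log2 fold change was -0.03, against 0.00 over all genes tested. In edgeR's quasi-likelihood test none passed an adjusted p of 0.05, and 3 fell and none rose at an unadjusted p under 0.05; in DESeq2, 1 passed, Pcp4. Over all genes 0.0973% rose and 0.0843% fell past the adjusted threshold, and 5.19% rose and 5.31% fell past the unadjusted one. Ppp1r1b, which encodes the dopamine signalling protein DARPP-32, averaged 2441 CPM ± 149 (SD, n = 5) in ablated and 2535 CPM ± 510 (SD, n = 10) in control mice. The 3 that passed the unadjusted threshold were Pcp4, a calmodulin regulator, at -0.56 ± 0.12 (SE, adjusted p = 0.0634), Syndig1l at -0.53 ± 0.18 and Rasd2 at -0.34 ± 0.16. Pcp4 read 134 to 179 CPM in ablated mice and 184 to 308 CPM in controls, so its groups did not overlap, as was so for 0.253% of all genes in this direction. Against the 3 NestinTK-GCV+ mice alone, where 4% of 14536 genes rose and 3.26% fell past the adjusted threshold, 8 genes of the shared, direct and indirect lists passed it. Of these 6 fell, among them Pcp4 (-0.79), Syndig1l (-0.85), Rasd2 (-0.62), Adora2a (-0.62) and Drd2 (-0.53), and Rarb (0.56) and Slc35d3 (0.94) rose.

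Wfs1 relative to this list, as its log2 CPM minus the list mean, ran from -2.11 to -1.26 in ablated mice and from -3.50 to -1.97 in controls. The difference between the means was 1.05 on the log2 scale, and the ranges overlapped. In the SVZ the same difference was -0.07.

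Pathway markers split by gene. In the striatum 7 genes of the direct pathway list were tested, with a median of 0.04, and 5 of the indirect pathway list, with a median of 0.03. Drd1, the D1 dopamine receptor, differed by -0.12 ± 0.15 (SE) and Drd2, the D2 receptor, by -0.24 ± 0.18. Pdyn, the dynorphin precursor of direct pathway neurons, read 201 to 293 CPM in ablated and 52.9 to 217 CPM in control mice. Its log2 fold change was 0.76 ± 0.19 (SE), which passed the unadjusted threshold only in edgeR (adjusted p = 0.110) and the adjusted one in DESeq2. Adora2a, the adenosine receptor of indirect pathway neurons, fell by 0.39 on the log2 scale at the unadjusted threshold (SE 0.18, edgeR adjusted p = 0.451). Pdyn had r = 0.76 with Wfs1 over the 15 striatum libraries and 0.50 over the 10 controls, given as a description.

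All 6 genes of a list with known enrichment in ventral striatum had higher values in ablated striatum, with a median of 1.15 against 0.00 over all genes. At the unadjusted threshold, where 5.19% of all genes rose, 4 of 6 passed, and 1 passed the adjusted one. This list, like the others, was chosen with earlier results of these data known, so its counts are a description. Nts, the neurotensin precursor, read 11.6, 21.4, 24.8, 23.3 and 6.32 CPM in ablated mice 1 to 5. Its controls read 2.99 to 6.14 CPM but for NestinTK-GCV+ mouse 2, at 15.0. Its log2 fold change was 1.57 ± 0.32 (SE, edgeR adjusted p = 0.0392). The adjusted p rose above the threshold, to at most 0.179, when any 1 of ablated mice 1 to 4, NestinTK-GCV+ mouse 3, NestinTK-PBS+ mice 2 and 3 or NestinTK+PBS+ mice 1 to 3 was left out. Against the 3 NestinTK-GCV+ mice alone Nts did not pass (1.25 ± 0.44, adjusted p = 0.0877) and Crym was the gene of the list that did (0.83 ± 0.23, adjusted p = 0.0281). Dlk1, an imprinted Notch-related membrane protein, read 44.2 to 88.9 CPM in ablated mice and 7.56 to 58.3 CPM in controls, at a log2 fold change of 1.32 ± 0.32 (adjusted p = 0.0872). NestinTK-GCV+ mouse 2 again gave the highest control value. Crym, a thyroid hormone binding protein, read 188 to 279 CPM against 44.3 to 234 CPM (0.73 ± 0.24) and Peg10, another imprinted gene, 3.32 to 11.1 CPM against 1.33 to 6.76 CPM (1.25 ± 0.32). Calcr and Trhr, both receptors, read from 0 to 6.76 CPM and passed neither threshold.

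Set against the mean of the ventral striatum list in place of the spiny list, Wfs1 did not stand higher in ablated striatum. Its log2 CPM exceeded the list mean by 3.41 ± 0.42 (SD, n = 5) in ablated mice and by 3.45 ± 0.48 (SD, n = 10) in controls, a difference of -0.04. This comparison was chosen after seeing the data. Where along the striatum each sample was cut was not measured, and its part in the Wfs1 values was not tested. In the SVZ the difference against this list was 1.36, with 4 of the 6 genes tested there and lower values in ablated mice for all 4 (median -0.90, none past either threshold).

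**Figure D2:**
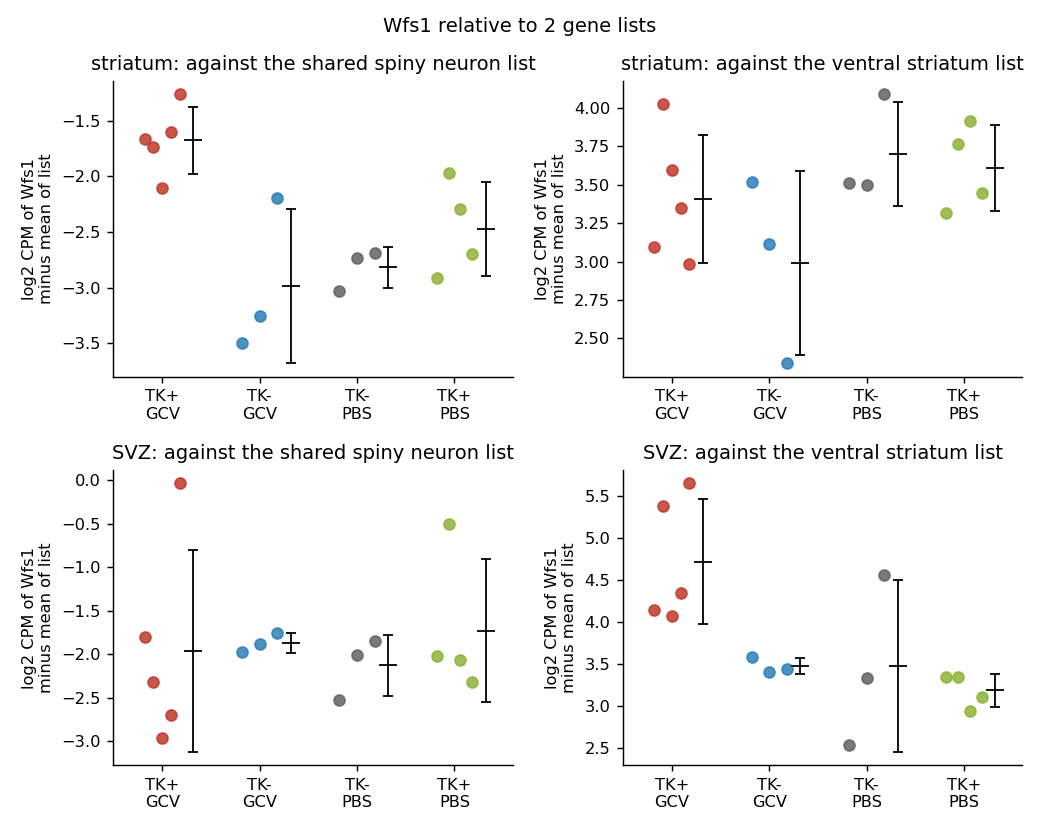
Log2 CPM of Wfs1 minus the mean log2 CPM of the shared spiny neuron list (left) or of the ventral striatum list (right), in the striatum (top) and SVZ (bottom), by group; points are mice and the black mark is the mean ± SD. In the striatum the ablated mice stand higher against the spiny list (difference 1.05) and not against the ventral list (difference -0.04).

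The ER stress pathway has 3 sensors, Ern1 (IRE1), Eif2ak3 (PERK) and Atf6, which act on transcription through factors such as Xbp1, Atf4 and Ddit3 (CHOP). Against all 10 controls none of its genes rose with Wfs1 in the striatum. All 10 sensors and factors were tested, with a median of -0.03. None passed the adjusted threshold in edgeR, DESeq2 or limma-voom, and at the unadjusted one in edgeR Ddit3 fell (-0.28 ± 0.13 SE). Ern1 read 3.17 to 6.53 CPM in ablated and 1.96 to 5.87 CPM in control mice (0.60 ± 0.29, edgeR unadjusted p = 0.0524). Atf6 differed by -0.03 ± 0.12 and Xbp1 by 0.05 ± 0.23.

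The 15 ER chaperones and foldases had a median of -0.05, none rose past either threshold, and Dnajc3 (-0.35 ± 0.14 SE), a co-chaperone with the element printed above, and Pdia3 (-0.27 ± 0.12), a disulfide isomerase, fell at the unadjusted threshold. Hspa5, the chaperone BiP, read 720, 714, 685, 702 and 982 CPM in ablated mice 1 to 5 and 717 to 935 CPM in controls. Its groups overlapped, at -0.11 ± 0.10 (SE). Of 12 genes of ER-associated degradation, Herpud1 fell (-0.33 ± 0.12) at the unadjusted threshold and none rose. Among 10 targets of the integrated stress response, Psat1, a serine synthesis enzyme, fell (-0.33 ± 0.13) at that threshold. None of 15 genes of ER calcium handling and wolframin partners passed either threshold, with Cisd2, whose loss gives another form of Wolfram syndrome, at 0.10 ± 0.14 and Ncs1, a calcium sensor, at 0.28 ± 0.20.

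Set against the 3 NestinTK-GCV+ mice alone, 9 genes of these ER lists passed the adjusted threshold in the striatum. Of all 14536 genes tested in that comparison, 4% rose and 3.26% fell past it. Those that rose were Syvn1, a ubiquitin ligase of ER-associated degradation (1.18 ± 0.21 SE, edgeR adjusted p = 0.00142), Dnajb9, a co-chaperone (0.98 ± 0.23, adjusted p = 0.00986), Ncs1 (0.93 ± 0.19, adjusted p = 0.00489) and Xbp1 (0.78 ± 0.20, adjusted p = 0.0184). Those that fell were Ddit3 (-0.49), the calcium channels Itpr2 (-0.60) and Ryr2 (-0.57), the calcium pump Atp2a2 (-0.45) and Vcp (-0.40), an ATPase of degradation. Xbp1 read 39.4, 34.3 and 74.6 CPM in NestinTK-GCV+ mice 1 to 3, 70.7 to 105 CPM in ablated and 53.2 to 117 CPM in PBS mice. Ncs1 read 91.6, 81.3 and 187 CPM in those 3 mice, 209 to 265 CPM in ablated and 163 to 262 CPM in PBS mice. Of the genes that rose, only Xbp1 and Ncs1 have single libraries shown. For both, NestinTK-GCV+ mice 1 and 2 were the lowest of all 15, while the ablated and PBS mice overlapped. The same mice did not share a Wfs1 level, at 50.0 and 96.3 CPM.

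In the SVZ no gene of these lists passed the adjusted threshold in edgeR, DESeq2 or limma-voom, past which 0% of 16375 genes tested rose and 0.00611% fell. At the unadjusted threshold 3.73% of all genes rose and 6.09% fell. Dnajc3 (-0.88 ± 0.29 SE) and Sdf2l1 (-1.45 ± 0.59), both ER co-factors of BiP, fell at that threshold. Both were highest in the 3 Ttr-rich control libraries, where Dnajc3 read 133 to 138 CPM, against 56.6 to 91.2 CPM in the other controls. Without those 3 libraries neither passed (-0.52 ± 0.26 for Dnajc3, -1.06 ± 0.66 for Sdf2l1). Phgdh, of serine synthesis, also fell (-0.61 ± 0.26). The ryanodine receptors Ryr1 (1.32 ± 0.44) and Ryr3 (0.81 ± 0.29), calcium channels of the ER, rose at the same threshold. Hspa5 averaged 252 CPM ± 49.7 (SD, n = 5) in ablated and 332 CPM ± 97.2 (SD, n = 10) in control SVZ (edgeR, unadjusted p = 0.0550). In the 3 Ttr-rich control libraries Hspa5 read 346 to 510 CPM, against 237 to 334 CPM in the other controls.

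Of 10 nuclear noncoding RNAs 3 rose past the adjusted threshold in ablated striatum and 7 past the unadjusted one, with a list median of 0.86. Over all genes 0.0973% rose past the adjusted threshold and 5.19% past the unadjusted one. Malat1 read 7098 to 9486 CPM in ablated mice. In controls it read 2272 to 5014 CPM, apart from NestinTK-GCV+ mouse 1 at 8423. Its log2 fold change was 1.06 ± 0.20 (SE, edgeR adjusted p = 0.0376). Meg3, from the imprinted Dlk1 region, read 7257 to 9388 CPM against 2321 to 6577 CPM (1.08 ± 0.18, adjusted p = 0.0117). Its groups did not overlap, as was so for 0.279% of all genes in this direction. Snhg11 read 1680 to 2396 CPM against 735 to 1956 CPM (0.87 ± 0.18, adjusted p = 0.0483). These calls depended on single libraries. Meg3 lost its call without any 1 of ablated mice 1 to 3 (adjusted p up to 0.0911), Malat1 without any 1 of ablated mice 1 to 4, NestinTK-PBS+ mouse 2 or NestinTK+PBS+ mice 1 and 3 (up to 0.165), and Snhg11 without any 1 of the 5 ablated mice, NestinTK-GCV+ mouse 3, the 3 NestinTK-PBS+ mice or NestinTK+PBS+ mice 1 and 3 (up to 0.177). DESeq2 and limma-voom each called 5 of the 10, all as rises, with no share over all genes counted for them. Against the 3 NestinTK-GCV+ mice alone edgeR called 5, of which 4 rose and Peg13 fell (-0.80, adjusted p = 0.000732). In that comparison 4% of all genes rose and 3.26% fell past the adjusted threshold. With DESeq2 size factors or upper-quartile scaling in edgeR 2 were called, since Snhg11 did not pass (adjusted p = 0.0541 and 0.0554). Miat (1.08 ± 0.24), Mirg (0.98 ± 0.27), Kcnq1ot1 (0.86 ± 0.19) and Rian (0.77 ± 0.21) rose at the unadjusted threshold, where Peg13 (-0.40 ± 0.16) fell. Neat1, which builds paraspeckles, differed by -0.16 ± 0.24, and Snhg14 by 0.13 ± 0.12.

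In NestinTK-GCV+ mice 1 and 2 Malat1 and Wfs1 parted. NestinTK-GCV+ mouse 1 had the highest control Malat1, inside the ablated range, and the lowest Wfs1 of all striatum libraries, at 50.0 CPM. NestinTK-GCV+ mouse 2 had a Malat1 of 3163 CPM and the second highest control Wfs1, at 96.3 CPM. In the SVZ, where the Wfs1 groups overlapped, 4 of the 10 noncoding RNAs rose at the unadjusted threshold, as 3.73% of all genes did. These were Malat1, Meg3, Snhg11 and Rian (0.71 to 0.92 log2). None passed the adjusted threshold in edgeR, and Snhg11 did in DESeq2. Malat1 there read 2290 CPM in ablated mouse 3 and 1387 in ablated mouse 2, against 359 to 807 CPM in controls and in the other ablated mice.

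**Figure D3:**
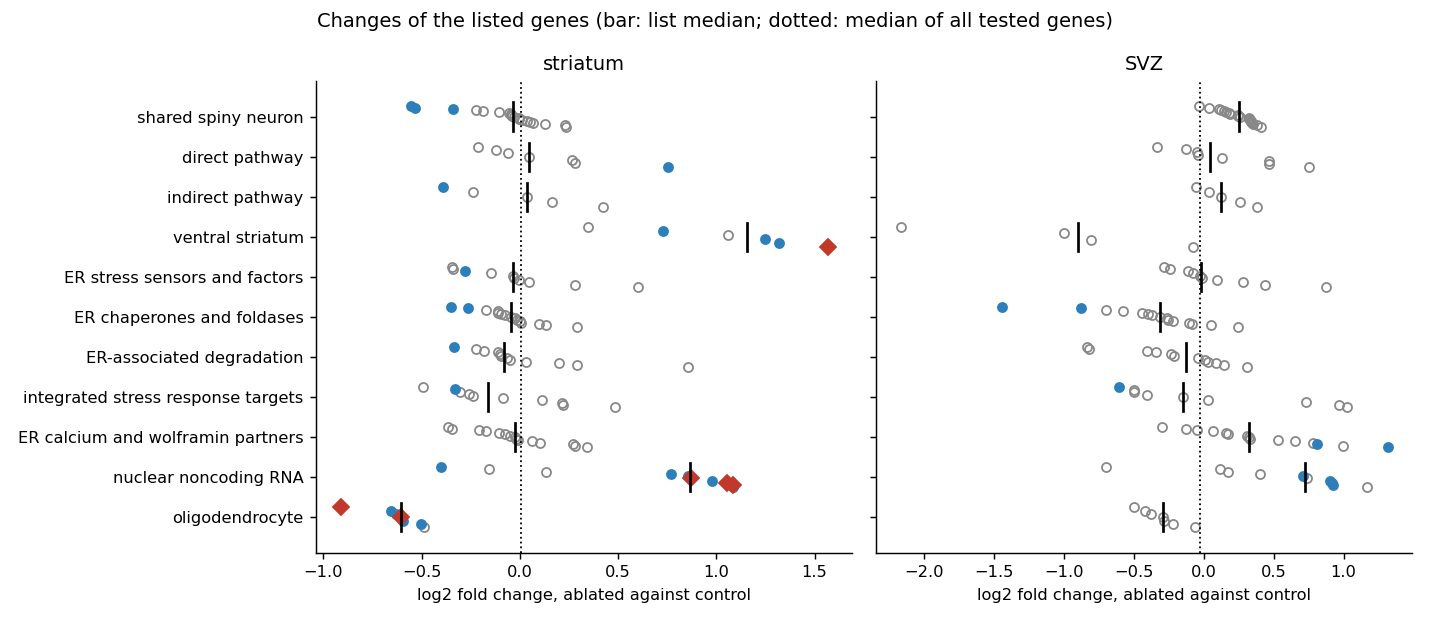
Log2 fold change, ablated against control (horizontal axis), of each tested gene in 11 lists, striatum left and SVZ right. Open circles passed no threshold, blue circles an unadjusted p under 0.05 and red diamonds an adjusted p under 0.05. Bars are list medians and the dotted line the median of all genes. The striatal ventral list (median 1.15) and noncoding list (median 0.86) lie to the right, the oligodendrocyte list (median -0.61) to the left.

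The relation of Wfs1 to the mean of each list was computed over libraries, 21 relations in both tissues. Wfs1 was chosen for its group levels, so r over all 15 libraries, and r over the GCV libraries, hold the same difference between ablated and control mice and are given with no p. The 10 control libraries, and the 7 PBS libraries among them, were tested. Adjusted p-values are over the 21 relations in controls.

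With the ventral striatum list Wfs1 had r = 0.81 (Spearman rho = 0.83) over the 15 striatum libraries, and r = 0.85 without the 2 farthest from the median of that list. Over the 10 controls r was 0.62 (permutation p = 0.0480, adjusted p = 0.504) and rho 0.65, which did not pass the adjusted threshold. Within PBS libraries r was 0.42 (n = 7, exact permutation p = 0.379), within GCV libraries 0.80 and over deviations from the 4 group means 0.79. The sign was the same in each of these sets, but they share libraries and are not separate evidence. The list was also chosen with earlier results of these data known. NestinTK-GCV+ mouse 2, high in Wfs1 and in the list, belongs to the GCV set and to the controls.

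With the noncoding list r was 0.57 and rho 0.52 over the 15 libraries, and r was 0.47 without the 2 farthest. Over the 10 controls r was -0.34 (permutation p = 0.332, adjusted p = 0.697), within PBS libraries 0.02 (n = 7, exact permutation p = 0.965), within GCV libraries 0.55 and over deviations from group means -0.18. The relation over all libraries was not seen over controls or over deviations from group means. Both sets include NestinTK-GCV+ mouse 1, lowest in Wfs1 and high in the list (8.04 log2 CPM), and its weight in them was not tested. Leaving out NestinTK-GCV+ mouse 1 raised the overall r to 0.78.

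With the oligodendrocyte list r and rho were both -0.70 over the 15 libraries, and r was -0.75 without the 2 farthest. Within GCV libraries r was -0.92. Over the 10 controls r was -0.14 (permutation p = 0.702, adjusted p = 0.825), within PBS libraries -0.33 (n = 7, exact permutation p = 0.488) and over deviations from group means -0.43. The relation was not detected among controls. All 7 oligodendrocyte genes had lower values in ablated striatum. Of these 6 fell at the unadjusted threshold, as 5.31% of all genes did, and 2 at the adjusted one, as 0.0843% did. The 2 were Mag (-0.91 ± 0.15 SE, edgeR adjusted p = 0.0117) and Mal (-0.61 ± 0.12, adjusted p = 0.0368), both myelin proteins. Mag lost its call without any 1 of ablated mice 1 to 4 (adjusted p up to 0.114), and Mal without any 1 of these, NestinTK-PBS+ mouse 2 or NestinTK+PBS+ mouse 1 (up to 0.165). The summed CPM of the list ran from 2175 to 2774 in ablated and from 2401 to 5996 in control mice. Its part in the Wfs1 values was not tested.

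With the shared spiny list r was -0.06 and rho -0.40 over the 15 libraries. This value rested on NestinTK+PBS+ mouse 4, without which r was -0.69. Without the 2 farthest libraries, that mouse and ablated mouse 2, r was -0.60. Over the 10 controls r was 0.04 (permutation p = 0.890, adjusted p = 0.918). With the direct pathway list r was 0.55 and rho 0.62, and over the controls r was 0.42 (permutation p = 0.234, adjusted p = 0.697).

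The 3 ER lists tested in this way gave r of -0.02 (sensors and factors), -0.07 (chaperones) and 0.31 (degradation) over the 15 striatum libraries. Over the controls r was 0.04, 0.16 and 0.35, with adjusted permutation p from 0.697 to 0.918. Chaperones and degradation each gave 0.72 within GCV libraries, against -0.39 and 0.36 within PBS libraries.

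In the SVZ r over the 15 libraries was -0.53 for oligodendrocyte genes, 0.16 for the ventral striatum list, -0.36 for the spiny list and -0.19 for ER stress sensors and factors. Among the 10 controls the last of these had r = -0.77 (permutation p = 0.0106, adjusted p = 0.223) and rho = -0.68, and within PBS libraries r = -0.76 (n = 7, exact permutation p = 0.0502). Within GCV libraries it was 0.28. None of the 10 SVZ lists passed the adjusted threshold among controls.

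**Figure D4:**
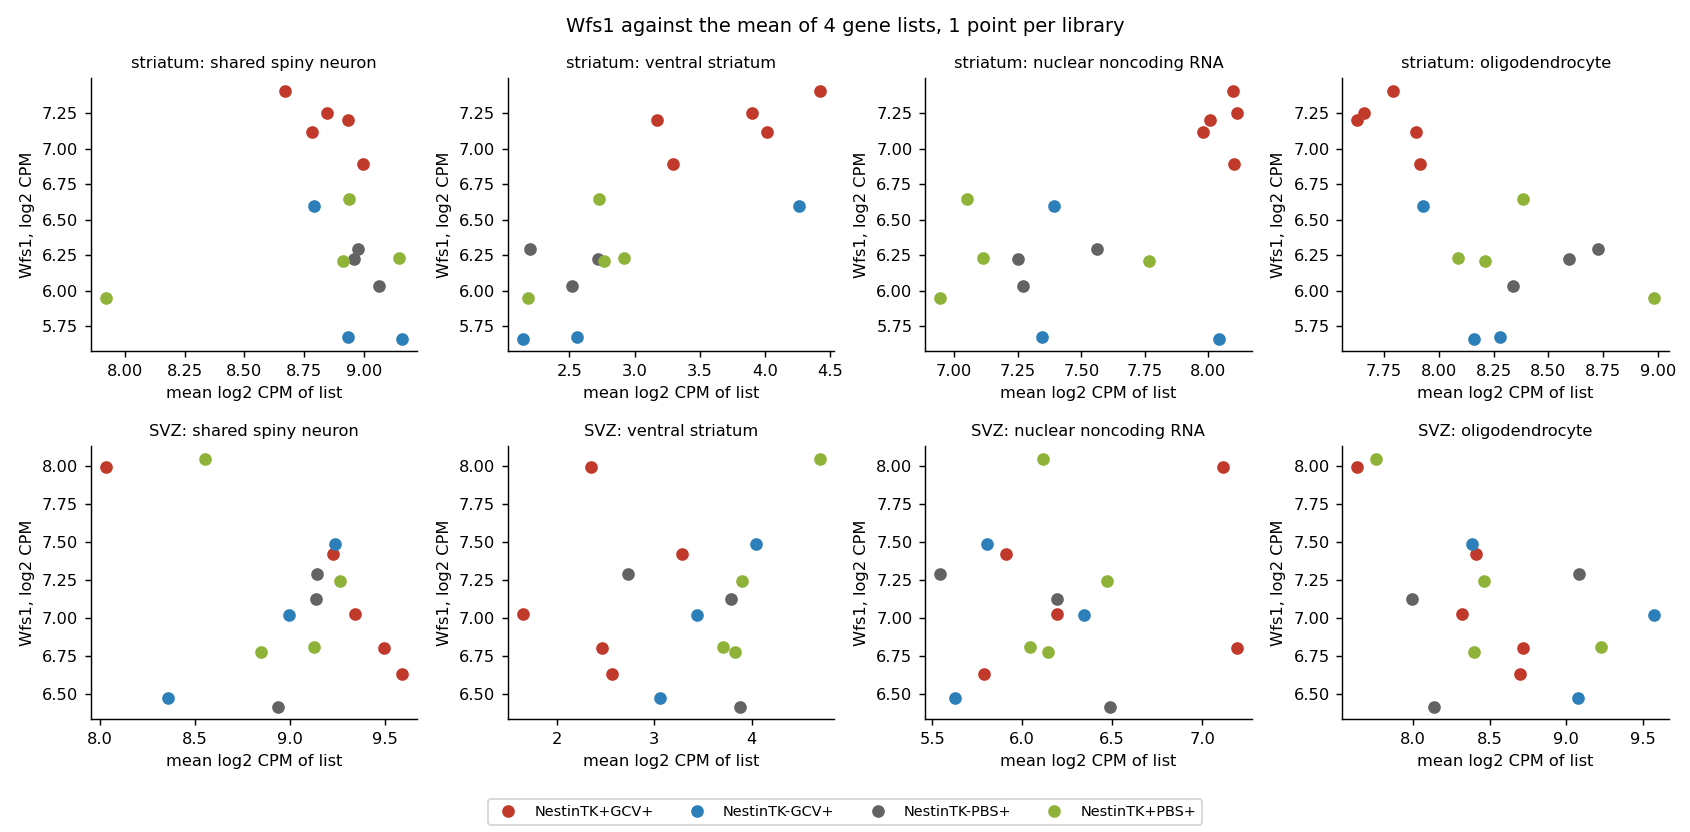
Wfs1 (log2 CPM, vertical axis) against the mean log2 CPM of 4 gene lists (horizontal axis) in the striatum (top) and SVZ (bottom), 1 point per library, coloured by group. In the striatum Wfs1 runs with the ventral striatum list (r = 0.81) and against the oligodendrocyte list (r = -0.70); the point far to the left against the spiny list is NestinTK+PBS+ mouse 4.

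**Figure D5:**
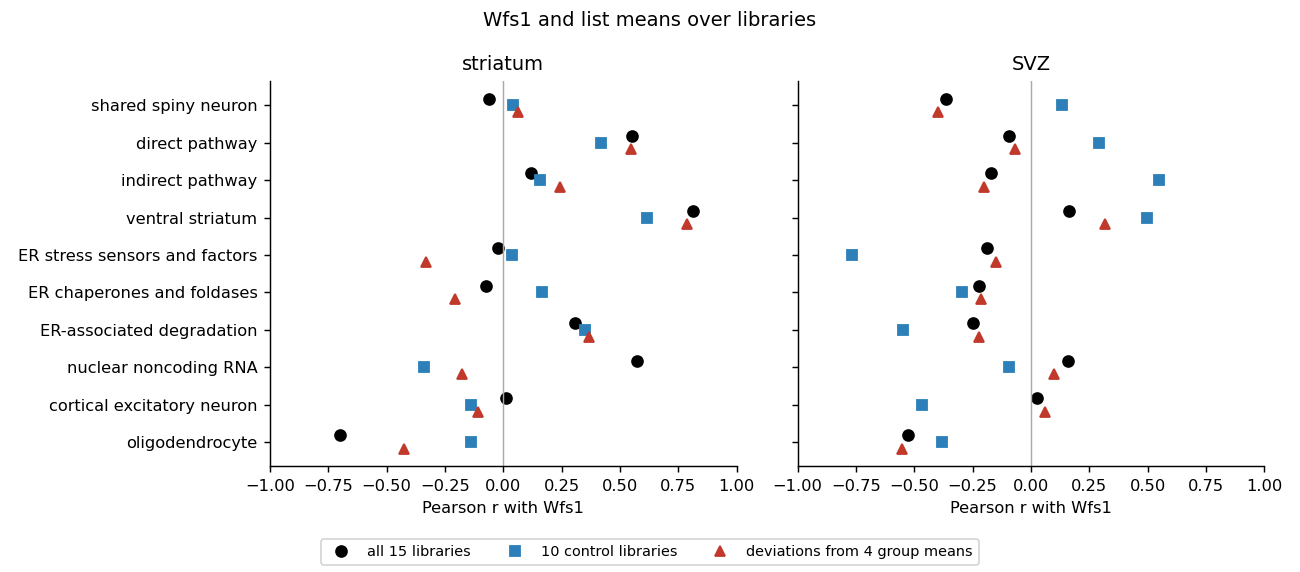
Pearson r of Wfs1 with each list mean in the striatum and SVZ, over all 15 libraries (black circles), the 10 control libraries (blue squares) and deviations from the 4 group means (red triangles). In the striatum the 3 values of the ventral list lie together (0.62 to 0.81), while those of the noncoding list change sign (0.57 to -0.34). The 3 sets share libraries, and NestinTK-GCV+ mouse 1 is in each.

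Over all genes with a mean log2 CPM of at least 4, 7389 in the striatum, the pattern most like that of Wfs1 was Celf4, a neuronal RNA binding protein, with r = 0.92. Next came Dlk1 (0.89), Scg2, a granule protein of secretory neurons (0.89), Hap1, the huntingtin-associated protein (0.88), Seh1l (0.87), Marcks (0.87), Arl4a (0.85), Hnrnpdl (0.84), 2010204K13Rik (0.83) and Cadm1, a cell adhesion protein (0.83). Celf4 read 758 to 1248 CPM in ablated and 460 to 828 CPM in control mice. Over controls alone the r of these 10 ranged from 0.34 (Hnrnpdl) to 0.80 (Dlk1). The lowest r included those of Kif5a, a kinesin (-0.90), Prickle1 (-0.88), Cntn2 (-0.87) and Nfix (-0.86). These likenesses over 15 libraries include the group difference and are a description.

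In the SVZ, over 7507 genes, the most alike included Cadm1 (r = 0.84), Gpr17, a receptor of oligodendrocyte precursors (0.84), the astrocyte glutamate transporters Slc1a3 (0.76) and Slc1a2 (0.75), Rpl4 (0.74), Celf4 (0.74), Rab1a (0.74), Wdfy3 (0.72) and Fam107a (0.72). The least alike were Ncoa3 (-0.79), Mtss1 (-0.76), Rbm6 (-0.74), Spg20 (-0.74) and Vezf1 (-0.74). Celf4 and Cadm1 stood among the 10 most alike in both tissues, which share their mice. Gpr17 read 112 CPM in ablated mouse 2 and 86.8 in NestinTK+PBS+ mouse 4, the same 2 SVZ libraries that were highest in Wfs1.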

How the data were processed

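Striatum RNA (QuantSeq 3′ FWD) and SVZ RNA (SMART-Seq v4) of 15 mice were analysed, each tissue apart. The authors trimmed reads with Trimmomatic (0.36 in the submitters' processing notes, where the study's methods name another version), aligned them to GRCm38 (STAR 2.5.3a) and deposited raw counts per gene from featureCounts. The strand setting is not given in the sources used here. Genes with a CPM over 1 in at least 3 libraries were tested, 15419 in the striatum and 16375 in the SVZ. TMM scaling and edgeR 4.0.16 (quasi-likelihood, Benjamini-Hochberg, adjusted p under 0.05; R 4.3.3) compared ablated mice with the 10 controls, and a model of 4 groups gave the contrasts for Wfs1. Log2 CPM used a prior count of 2. Relations used Pearson's r and Spearman's rho with two-sided permutation tests (100000 resamples, exact below 10 libraries), adjusted over 21 relations. The p-values printed are those over controls or PBS libraries, a choice made after seeing the data, since relations over all libraries hold the group difference by which Wfs1 was chosen. DESeq2 1.42.0 and limma-voom (limma 3.58.1) were alternatives, with other scalings, no filter, other control sets and each library left out in turn. The code was tested on simulated data.

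Wfs1 and the gene lists were chosen with earlier results of these data known. Named genes are Wfs1, genes of the lists, and the 10 highest and 5 lowest in r among genes with a mean log2 CPM of at least 4. Some genes that this rule takes are not reported here. Each library is a separate mouse. Wfs1 had 184 to 487 counts per striatum library and 798 to 3789 per SVZ library. Motifs were searched in RefSeq promoters.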

Additional observations from a re-analysis of the deposited data

Results flagged for a closer look

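Single libraries far from the rest of their group were looked for in 72 sets of values by Dixon's criterion, which flags about 1 in 20 sets by chance. NestinTK+PBS+ mouse 4 was apart in the striatum, with a mean of 7.92 log2 CPM for the shared spiny list and 6.27 for the indirect pathway list, the latter both in its group and among all controls. In its SVZ library Wfs1 was 265 CPM, against 85.1 to 179 in the other controls, and Wfs1 relative to the spiny list was -0.50 log2, in its group and among all controls. NestinTK-GCV+ mouse 2 was apart among striatum controls for the ventral striatum list, at 4.26 log2 CPM against 2.14 to 2.92. The SVZ library of ablated mouse 2 was apart within its group for the shared spiny list (8.03), the indirect pathway list (6.49) and the cortical excitatory neuron list (5.61). NestinTK-GCV+ mouse 3 was apart among SVZ controls for the indirect pathway list, at 6.86 log2 CPM. Their causes were not tested.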

How the results depend on the processing

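The striatal log2 fold change of Wfs1 against all controls ran from 0.94 to 1.07 with each library left out in turn. Over the same left-out libraries it ran from 0.98 to 1.52 against NestinTK-GCV+, and the interaction from 0.88 to 1.43. NestinTK-GCV+ minus NestinTK-PBS+ ran from -0.52 to 0.022, and NestinTK-GCV+ minus NestinTK+PBS+ from -0.62 to -0.074. In the SVZ the value against all controls ran from -0.14 to 0.26. Set against the ventral list in place of the spiny list, Wfs1 differed by -0.041 in the striatum and 1.36 in the SVZ. No paired analysis was possible because the groups are different mice and the replicate numbers carry no pairing.

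Counts of list genes past the adjusted threshold changed most. Shares over all genes were counted only for edgeR's main fit and its fit against NestinTK-GCV+ alone. Counts under the other settings therefore have no share to be set against. In the striatum the spiny neuron lists gave 0 genes, 2 in DESeq2, 2 without the low-count filter, 8 against NestinTK-GCV+ alone and 0 to 3 with a library left out. The ER lists gave 0, and 9 against NestinTK-GCV+ alone. The noncoding list gave 3, 2 with DESeq2 size factors or upper-quartile scaling, 4 with library totals, 5 in DESeq2, 5 in limma-voom, 6 without the filter, 5 against NestinTK-GCV+ alone and 0 to 5 with a library left out. The ventral list gave 1, 2 in DESeq2, 2 in limma-voom, 2 without the filter, 3 by the study's rule of an unadjusted p under 0.01 and a fold of 2, 0 among mice whose labels carry the higher series of mouse numbers (chosen after seeing the data), and 0 to 3 with a library left out. In the SVZ the ER lists gave 1 by the study's rule and the noncoding list 1 in DESeq2, against 0.

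Single genes near no change turned sign: Ppp1r1b (0.000539 with library totals, 0.076 among the same mice), Drd1 (0.011), Neat1 (0.17) and Atf6 (0.0035) among the same mice, Atf6 with library totals (0.025) and with a library left out (-0.099 to 0.039), Xbp1 with a library left out (-0.043 to 0.11), and SVZ Crym (0.47 against NestinTK-GCV+ alone, -0.35 to 0.13 with a library left out).

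Library totals alone moved striatal r to 0.17 for ER sensors, 0.16 for chaperones and -0.62 for oligodendrocyte genes. Upper-quartile scaling gave r of -0.00396 for the SVZ cortical list. Without the 3 Ttr-rich SVZ controls r was 0.19 for chaperones, -0.028 for cortical and -0.75 for oligodendrocyte genes. Over the 10 controls alone, chosen after seeing the data, striatal r was 0.041 (spiny), 0.62 (ventral), 0.037 (ER sensors), 0.16 (chaperones), -0.34 (noncoding), -0.14 (cortical) and -0.14 (oligodendrocyte), and SVZ r 0.13 (spiny), 0.29 (direct), 0.55 (indirect), 0.50 (ventral), -0.77 (ER sensors), -0.10 (noncoding) and -0.47 (cortical). With a library left out, striatal r ran from -0.69 to 0.054 (spiny), 0.46 to 0.68 (direct), -0.42 to 0.23 (indirect), 0.76 to 0.88 (ventral), -0.25 to 0.10 (ER sensors), -0.26 to 0.058 (chaperones), 0.13 to 0.40 (degradation), 0.51 to 0.78 (noncoding), -0.14 to 0.33 (cortical) and -0.77 to -0.65 (oligodendrocyte). SVZ r ran from -0.23 to 0.25 (direct), -0.42 to 0.30 (indirect), -0.12 to 0.40 (ventral), -0.37 to 0.079 (ER sensors), -0.15 to 0.32 (noncoding) and -0.40 to 0.31 (cortical).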
